A study of Homo sapiens with 2 samples.

Results

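The cyclin-dependent kinase (CDK) inhibitor genes CDKN1A, CDKN1B, CDKN1C, CDKN2A, CDKN2B, CDKN2C and CDKN2D were described here, 7 of the 20163 protein-coding genes in the annotation. They were taken by name, as the families of proteins that inhibit cyclin-dependent kinases. All CpG dinucleotides within 2000 bp of any annotated transcription start site (TSS) or inside the gene body were used, which gave 2860 of the 28217448 CpG dinucleotides listed. Of these, 2216 had over 5 reads in each line, and methylation levels were taken over those. Whole-genome bisulfite sequencing, in which unmethylated cytosines are converted and read as thymine, had been run on 2 acute myeloid leukemia (AML) cell lines. OCI-AML3 is labelled DNMT3A mutant and carries a heterozygous R882C change according to the study, and OCI-AML5, called AML5 in the study, is labelled DNMT3A wild type. DNMT3A is an enzyme that places new methyl groups on CpG dinucleotides. The genotype was not analysed here, neither line had been treated, and both had been grown in the same medium. Each line is 1 library from 1 culture, so the genotype cannot be told apart from any other difference between the lines. Expression of these genes was not analysed here.

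CDK inhibitors hold back the cell cycle. The INK4 proteins, made from CDKN2A (p16), CDKN2B (p15), CDKN2C (p18) and CDKN2D (p19), bind the kinases CDK4 and CDK6 and keep them from cyclin D. The CIP/KIP proteins, made from CDKN1A (p21), CDKN1B (p27) and CDKN1C (p57), inhibit cyclin-bound kinases, CDK2 in particular. CDKN2A also has an upstream start site for a different protein, ARF, which protects p53 by inhibiting MDM2. Methylation of the CDKN2B promoter is well known in myeloid leukemia, and CDKN2A and CDKN2B lie next to each other on the short arm of chromosome 9.

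The depth was even at the scale of the genome, with 902802339 calls in OCI-AML3 and 894828667 in OCI-AML5, and means of 32.85 and 32.48 reads per autosomal CpG. At the median depths of 27 and 30 reads, taking 3 calls as the smallest number detected, 1 CpG cannot show a methylated share under 11.1% in OCI-AML3 or under 10.0% in OCI-AML5. On the mitochondrial genome, 0.168% and 0.101% of calls were methylated. The mean autosomal level was 67.6% in OCI-AML3 and 75.3% in OCI-AML5, so a lower level in OCI-AML3 is the usual direction in these data.

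The sequences below show 3 start sites of CDKN2A and CDKN2B, of which the ARF start had almost the same level in both lines, and a stretch each of CDKN1C and CDKN1B in which the lines differed. They are GRCh37 reference sequence, written 5′ to 3′ on the strand of the gene, with every CpG in capitals. The first 3 run from 270 bases before the most upstream TSS of the named start to 30 bases from it. CDKN2B start is chr9:22009275-22009574, CDKN2A p16 start is chr9:21974836-21975135, and CDKN2A ARF start is chr9:21995271-21995570, all on the minus strand. The other two are the 300-base stretches of CDKN1C (chr11:2905201-2905500, minus strand, from 1505 to 1804 bp after the canonical TSS) and CDKN1B (chr12:12867462-12867761, plus strand, from -2840 to -2541 bp relative to the canonical TSS) that hold the most CpG dinucleotides called lower in OCI-AML3 by the test described below. Only stretches whose lowest position is a called CpG, with at most 30 bases of untranslated region, were considered. These 2 were thus chosen by their values.
CDKN2B start: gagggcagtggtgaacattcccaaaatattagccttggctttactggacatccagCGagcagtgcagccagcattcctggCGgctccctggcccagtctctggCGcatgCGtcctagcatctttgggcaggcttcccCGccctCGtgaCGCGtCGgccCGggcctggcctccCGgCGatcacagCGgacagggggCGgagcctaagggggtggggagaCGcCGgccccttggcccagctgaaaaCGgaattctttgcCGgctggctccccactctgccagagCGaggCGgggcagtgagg
CDKN2A p16 start: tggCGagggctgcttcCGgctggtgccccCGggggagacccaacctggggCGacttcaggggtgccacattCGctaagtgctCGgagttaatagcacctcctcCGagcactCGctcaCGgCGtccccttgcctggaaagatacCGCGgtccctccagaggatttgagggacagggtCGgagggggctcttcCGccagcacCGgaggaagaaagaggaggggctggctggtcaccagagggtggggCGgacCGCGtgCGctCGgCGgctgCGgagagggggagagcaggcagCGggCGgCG
CDKN2A ARF start: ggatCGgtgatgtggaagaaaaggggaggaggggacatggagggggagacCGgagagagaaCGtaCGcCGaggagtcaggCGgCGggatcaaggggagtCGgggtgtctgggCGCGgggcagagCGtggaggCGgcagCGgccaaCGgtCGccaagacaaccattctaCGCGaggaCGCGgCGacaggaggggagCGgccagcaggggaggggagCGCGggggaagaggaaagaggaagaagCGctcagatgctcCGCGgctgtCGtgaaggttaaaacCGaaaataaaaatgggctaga
CDKN1C stretch: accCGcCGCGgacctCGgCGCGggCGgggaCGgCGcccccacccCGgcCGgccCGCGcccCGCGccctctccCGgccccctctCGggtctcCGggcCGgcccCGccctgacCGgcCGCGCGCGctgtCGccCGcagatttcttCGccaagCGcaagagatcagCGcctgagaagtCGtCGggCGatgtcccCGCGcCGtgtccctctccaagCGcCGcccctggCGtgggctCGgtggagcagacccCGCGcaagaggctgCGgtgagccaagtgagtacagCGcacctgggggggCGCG
CDKN1B stretch: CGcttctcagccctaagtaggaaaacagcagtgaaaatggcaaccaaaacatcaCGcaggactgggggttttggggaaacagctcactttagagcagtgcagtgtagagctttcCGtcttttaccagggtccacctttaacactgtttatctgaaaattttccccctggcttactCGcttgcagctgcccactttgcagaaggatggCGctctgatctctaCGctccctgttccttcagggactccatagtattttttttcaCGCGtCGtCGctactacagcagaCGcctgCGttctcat

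These stretches hold 20, 25, 28, 46 and 12 CpG dinucleotides in the order printed. Against all 20163 promoters cut in the same way, 44.4% have at least as many as the CDKN2B start, 32.9% as the p16 start and 26.0% as the ARF start, with a median of 17. The CDKN1C stretch is denser, with a G and C content of 77.7%, and 2.82% of promoters reach its count. That comparison is not like for like. The stretch lies inside the gene and was picked for its number of called CpG dinucleotides, which favors dense sequence, while the promoters were cut at a fixed place. The shares below count every call of a stretch, also at CpG dinucleotides without over 5 reads in each line. At the CDKN2B start, 2 of 989 calls were methylated in OCI-AML3 (0.202%) and 74 of 76 in OCI-AML5 (97.4%, Wilson 95% interval 90.9 to 99.3). Only 4 of its 20 CpG dinucleotides had over 5 reads in each line, with 42 of 43 methylated calls in OCI-AML5. At the p16 start, 2 of 1136 calls were methylated in OCI-AML3 (0.176%) and 83 of 89 in OCI-AML5 (93.3%, 86.1 to 96.9). Only 7 of its 25 had over 5 reads in each line, with 40 of 46 methylated calls in OCI-AML5 (87.0%, 74.3 to 93.9). The ARF start had 3 of 1927 methylated calls in OCI-AML3 and 0 of 267 in OCI-AML5, which allows a share of up to 1.12% by 3 counts of the total (Wilson upper limit 1.42%). In the CDKN1C stretch, 9.07% of 3164 calls were methylated in OCI-AML3 and 64.7% of 1466 in OCI-AML5. In the CDKN1B stretch, 4.51% of 799 calls were methylated in OCI-AML3 and 85.5% of 633 in OCI-AML5. The lines therefore sat near opposite ends of the scale at CDKN2B, p16 and the CDKN1B stretch, with an intermediate level in OCI-AML5 at CDKN1C. Intervals cover counting error only, and calls from the same read are not independent.

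Levels of a gene are given as the mean over its CpG dinucleotides with over 5 reads in each line, and differences as OCI-AML3 minus OCI-AML5 in percentage points. Over all TSS windows, 6 of 7 genes were lower in OCI-AML3, 2 of them by at least 20 points, and 1 was higher. Of the 19774 protein-coding promoters with at least 10 such CpG dinucleotides, 88.3% were lower by any amount, a share close to that of the 7 genes. By at least 20 points, 6.53% were lower and 1.04% were higher. The median difference was -7.62 points over the 7 genes and -4.83 over all promoters. Both genes past 20 points, CDKN2A and CDKN2B, lie on chromosome 9, in a stretch that was read poorly in OCI-AML5. The windows of all 7 genes together had 1446 of 1820 CpG dinucleotides under 20% in OCI-AML3 and 1231 in OCI-AML5, so most of these promoter CpG dinucleotides were unmethylated in both lines. Those over 80% numbered 231 in OCI-AML3 and 436 in OCI-AML5.

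**Figure D1:**
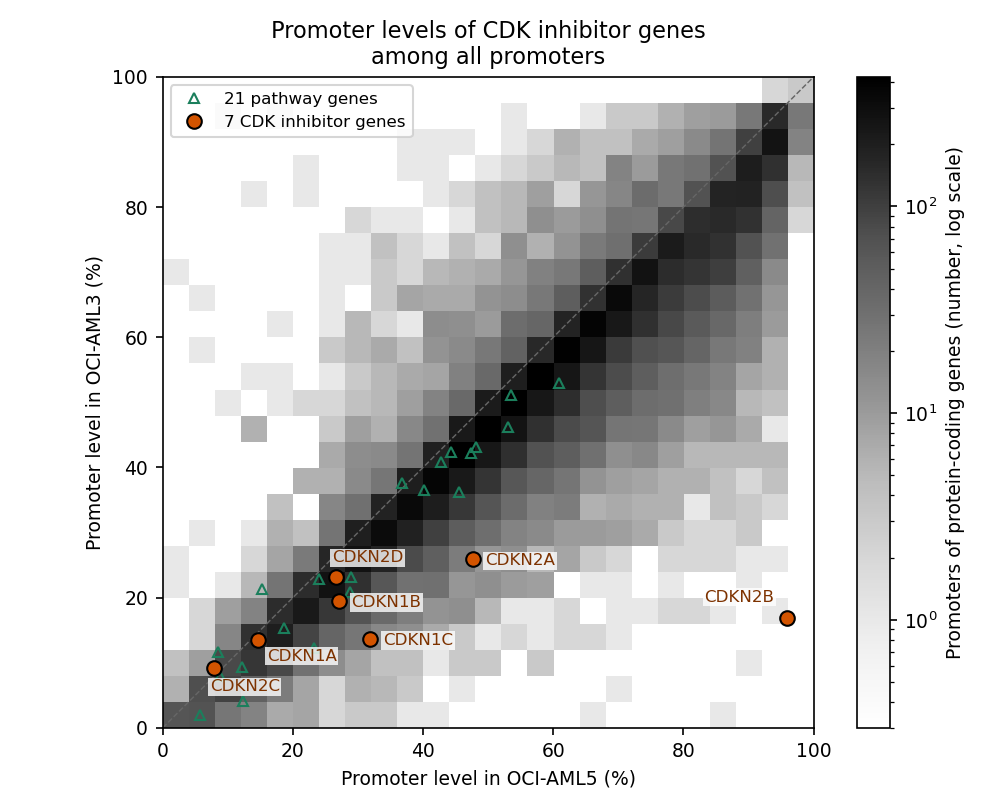
Promoter methylation level in OCI-AML3 (vertical axis, %) against OCI-AML5 (horizontal axis, %), with orange circles for the 7 CDK inhibitor genes, triangles for 21 genes of the same pathway, and gray squares for the number of protein-coding promoters (log scale). CDKN2B lies at 16.8% and 95.9%, far under the dashed line of equal levels, while the other members lie nearer to it.

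Each CpG was then tested between the lines with a two-sided Fisher's exact test on methylated and unmethylated calls, with Benjamini-Hochberg adjustment over the 24454751 nuclear CpG dinucleotides with enough reads. The test compares these 2 libraries and not the genotypes. At an adjusted p under 0.05, 300 of the 1820 promoter CpG dinucleotides were lower in OCI-AML3 (16.5%) and 16 were higher (0.879%). The background within 2000 bp of any protein-coding TSS was 12.5% lower and 4.12% higher, and over all nuclear CpG dinucleotides it was 14.7% and 3.86%. Without the 2 genes on chromosome 9, 198 of 1532 were lower (12.9%) and 16 were higher (1.04%), a share of lower calls near the background. The calls were unevenly spread over the genes, with 83.1% of CDKN2B, 33.9% of CDKN1C and 23.1% of CDKN2A promoter CpG dinucleotides called lower. CDKN1B had 10.8%, CDKN2D 6.53%, CDKN1A 3.83% and CDKN2C 0.581%, all under the background.

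**Figure D2:**
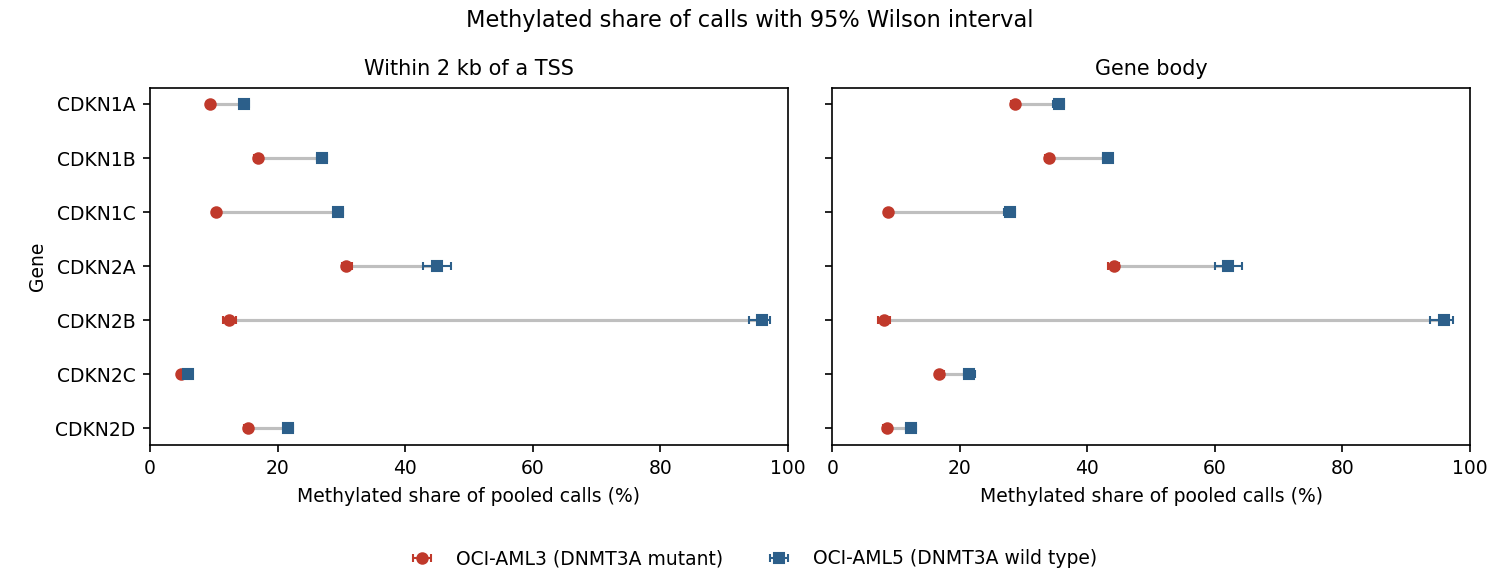
Methylated share of all calls (horizontal axis, %) at CpG dinucleotides with over 5 reads in each line, within 2 kb of a TSS (left) and in the gene body (right), for each gene (vertical axis). Bars are Wilson 95% intervals, and CDKN2B runs from 12.4% in OCI-AML3 to 96.0% in OCI-AML5 in its TSS windows. Every call counts once here, so CDKN2C is lower in OCI-AML3, while the mean over its CpG dinucleotides is higher there.

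CDKN2B (ENSG00000147883.12, chr9:22002902-22009304, minus strand) makes p15, and was the most different of the 7. Within 2000 bp of its canonical TSS at position 22009304, OCI-AML3 had 4.84% ± 18.5 (SD between CpG dinucleotides) and OCI-AML5 had 95.6% ± 7.32, over 51 of 124 CpG dinucleotides. Of those 51, 49 were called lower in OCI-AML3 (96.1%), against 12.5% within 2000 bp of any protein-coding TSS. In OCI-AML3, 48 of the 51 were under 20%, and in OCI-AML5 49 were over 80%. The lines thus hardly overlapped at these 51. Mean depth in this window was 58.3 for OCI-AML3 but only 6.25 for OCI-AML5, and the remaining CpG dinucleotides were left out. With a minimum of 1 read, the levels were 11.9% and 95.8% over 123. The 500-bp step that holds the TSS (22008902 to 22009401) had 0.221% in OCI-AML3 and 96.5% in OCI-AML5 over 35 CpG dinucleotides. The CpG with the largest call lay in the 5′ untranslated region at position 22009184, 120 bp after the TSS, with 0 of 67 methylated reads in OCI-AML3 and 15 of 15 in OCI-AML5 (adjusted p = 1.18e-14, Fisher's exact test).

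The unmethylated stretch of OCI-AML3 was short. Around the start of a second transcript with a retained intron, at position 22006270 inside the gene, both lines were methylated, with 93.2% in OCI-AML3 and 97.9% in OCI-AML5 over 8 of 84 CpG dinucleotides. Over all windows of the gene the levels were 16.8% and 95.9%, a difference of -79.1 points, and only 1 of the 19774 promoters had a lower difference. The minimum of reads kept 51 of 124 CpG dinucleotides at the canonical start but only 8 of 84 at this second one. With a minimum of 1 read, the difference over all windows was -55.5 points, and its rank was not taken at that minimum. By levels in both lines, the promoters of CAVIN3 (11.8% and 88.5%) and ZBED2 (23.0% and 88.3%) were among the 3 closest of the other 19773. These were read at 28.1 and 29.0 reads per CpG in OCI-AML5, against 5.02 at CDKN2B.

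CDKN2A (ENSG00000147889.18, chr9:21967751-21995300, minus strand) had 3 groups of start sites with 3 different patterns. At the p16 start, in the window around position 21974856, OCI-AML3 had 23.7% ± 26.4 and OCI-AML5 had 92.8% ± 17.0 over 47 of 138 CpG dinucleotides. Of those 47, 34 were called lower in OCI-AML3 (72.3%), against 12.5% within 2000 bp of any protein-coding TSS. At the ARF start, in the window around position 21995300, the levels were 0.620% and 0.124% over 115 of 237 CpG dinucleotides, and no CpG was called in either direction. With a minimum of 1 read the same window had 9.22% and 5.57% over 227. At the internal starts around position 21971399, both lines were methylated, with 94.6% and 97.7% over 39 of 85 CpG dinucleotides and no CpG called. The lines thus differed at the p16 start and had nearly the same level at the other two, and the difference of the whole gene depends on which start is taken. It was -21.7 points over all windows, and 0.496 at the most upstream TSS alone.

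The ARF window is also that of CDKN2B-AS1, the antisense RNA that starts there on the opposite strand, and its window held the same 115 CpG dinucleotides. In OCI-AML3 the p16 start was unmethylated over a short stretch. The 3 steps of 500 bp from 21974251 to 21975750 were at 0.872%, 0.589% and 0%, and the neighboring steps were at 38.4% downstream and 40.6% upstream. In OCI-AML5 these 5 steps ran from 81.2% to 95.5%. Near the 3′ end of the gene, the step 21968251 to 21968750 stood at 12.6% in OCI-AML3 against 95.9% in OCI-AML5 over 28 CpG dinucleotides. The CpG with the largest call lay there in an intron at position 21968511, with 0 of 46 methylated reads and 8 of 8 (adjusted p = 3.06e-08, Fisher's exact test). In the other direction it was position 21991698, with 32 of 34 methylated reads in OCI-AML3 and 1 of 8 in OCI-AML5 (adjusted p = 1.27e-04, Fisher's exact test).

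**Figure D3:**
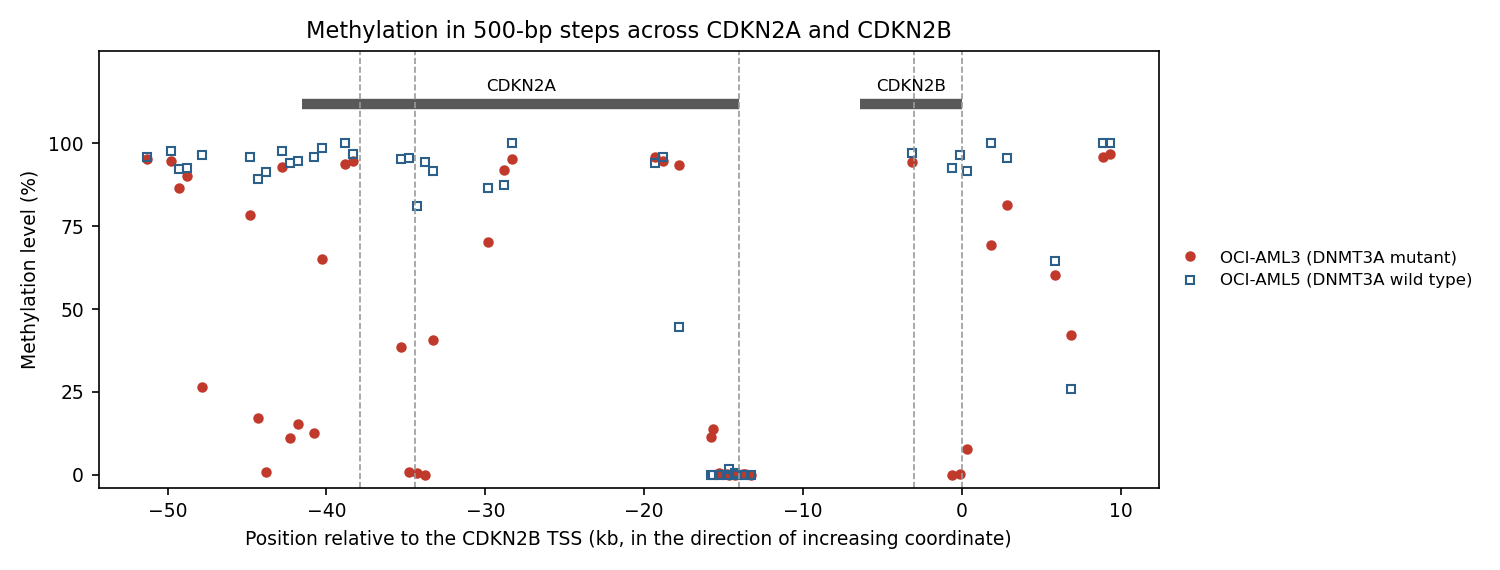
Methylation level (vertical axis, %) in steps of 500 bp with at least 3 CpG dinucleotides, across CDKN2A, CDKN2B and 10 kb on either side (horizontal axis, kb from the CDKN2B TSS), with dashed lines at the start sites. OCI-AML5 (open squares) is near the top at the p16 and CDKN2B starts, where OCI-AML3 (filled circles) is near 0, and both are near 0 at the ARF start, the dashed line at the right end of CDKN2A.

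Both chromosome 9 genes were read at a fraction of the usual depth in OCI-AML5. Per CpG, the TSS windows of CDKN2A had 48.6 reads in OCI-AML3 against 5.59 in OCI-AML5, and those of CDKN2B had 49.8 against 5.02. The other 5 genes had 44.5 to 61.9 reads in OCI-AML3 and 32.1 to 53.7 in OCI-AML5. Divided by the autosomal mean of the line, depth in OCI-AML5 was 0.172 at CDKN2A and 0.155 at CDKN2B, and at least 0.988 at the others. In 5-kb steps the low depth ran over 140.0 kb, from 21895001 to 22035000, with relative depths of 1.15 in OCI-AML3 and 0.153 in OCI-AML5. This stretch was measured after its depth had been seen. The 100 kb on either side had ratios of OCI-AML5 to OCI-AML3 of 1.14 and 1.25, against 0.133 inside.

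The stretch holds CDKN2A and CDKN2B whole, with the 3′ end of MTAP, an enzyme of methionine salvage, and the beginning of CDKN2B-AS1. At the main MTAP start, 37.8 reads per CpG in OCI-AML3 stood against 39.4 in OCI-AML5, and around its internal start at 21930389 the relative depth was 0.609 against 0.102. Of 48114 autosomal steps of 50 kb read at 0.5 or more of the autosomal mean in OCI-AML3, 4 (0.00831%) had under 0.25 of that relative depth in OCI-AML5. The median ratio of these steps was 1.13. Of the 4, 3 lie here and follow each other from 21900001 to 22050000, and the other is on chromosome 12 (11900001 to 11950000). The low depth of CDKN2A and CDKN2B is thus rare in this comparison, and both of its edges fall between adjacent steps. Whether copies of the stretch are missing in OCI-AML5 was not tested. Fewer cells that carry the stretch and fewer copies per cell cannot be told apart, and the part of the low depth in the levels of OCI-AML5 was not tested. In OCI-AML5, the ARF window was read at 0.185 of the autosomal mean and had 1 of 1066 methylated calls. The CDKN2B window was read at 0.192 and had 490 of 512.

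**Figure D4:**
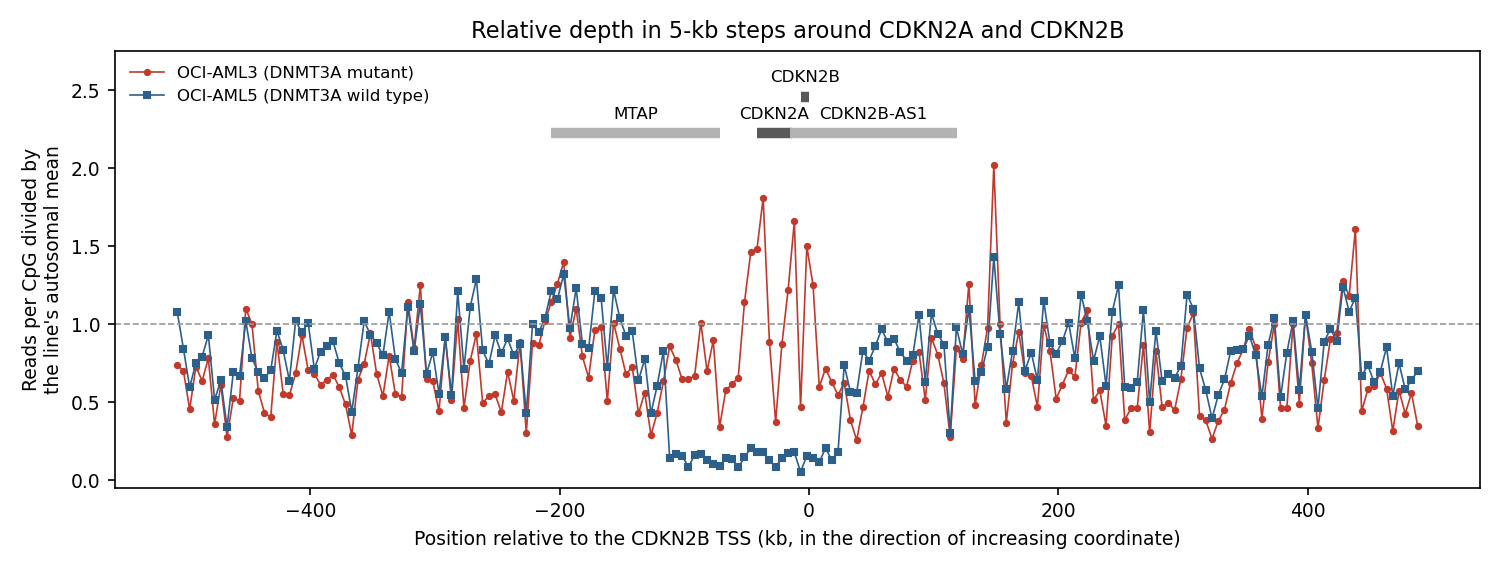
Reads per CpG divided by the autosomal mean of the line (vertical axis) in 5-kb steps over 1 Mb (horizontal axis, kb from the CDKN2B TSS), with gray bars for the genes. OCI-AML5 (squares) falls to about 0.153 over 140.0 kb that hold CDKN2A and CDKN2B, while OCI-AML3 (circles) has a mean of 1.15 over the same stretch, with single steps on both sides of it.

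The other 2 INK4 genes had unmethylated starts in both lines. CDKN2C (ENSG00000123080.12, chr1:51426417-51440306, plus strand), which makes p18, had 9.15% in OCI-AML3 and 7.86% in OCI-AML5 over 344 CpG dinucleotides of its windows. It was the only member higher in OCI-AML3, by 1.28 points, and with every call counted once the difference was -1.09. Its canonical start at position 51435917 had 3.86% and 1.17%, with 5 CpG dinucleotides called higher in OCI-AML3 and 0 called lower. Those lay at the downstream edge, where the step 51437417 to 51437916 stood at 84.2% in OCI-AML3 against 27.3% in OCI-AML5 over 5 CpG dinucleotides. Position 51437578, in the intron, had 19 of 22 methylated reads in OCI-AML3 and 0 of 20 in OCI-AML5 (adjusted p = 9.87e-08, Fisher's exact test). At the most upstream start, by contrast, position 51426414 had 2 of 41 and 19 of 23 (adjusted p = 6.60e-09, Fisher's exact test).

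CDKN2D (ENSG00000129355.7, chr19:10677136-10679735, minus strand), which makes p19, had 23.2% and 26.6% over 199 CpG dinucleotides, a difference of -3.44 points. Its untranslated exons were unmethylated, with 0.310% and 0.880% over 61 CpG dinucleotides, and its coding exons had 19.2% and 20.5% over 31. The calls, 13 lower and 2 higher, lay mostly before the gene, where levels were 39.3% and 44.7%. The CpG dinucleotides with the largest calls there were 10680538, with 5 of 23 methylated reads in OCI-AML3 and 22 of 26 in OCI-AML5 (adjusted p = 1.46e-04, Fisher's exact test), and 10681256, with 29 of 30 and 17 of 30 (adjusted p = 0.00349). CDKN2D was thus close to equal in the lines apart from a few CpG dinucleotides. The step from 10680136 to 10680635, at the border of its unmethylated stretch, held 5 of those called lower. Position 10681256 lay beyond it, in a step at 87.6% in OCI-AML3 and 93.0% in OCI-AML5.

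**Figure D5:**
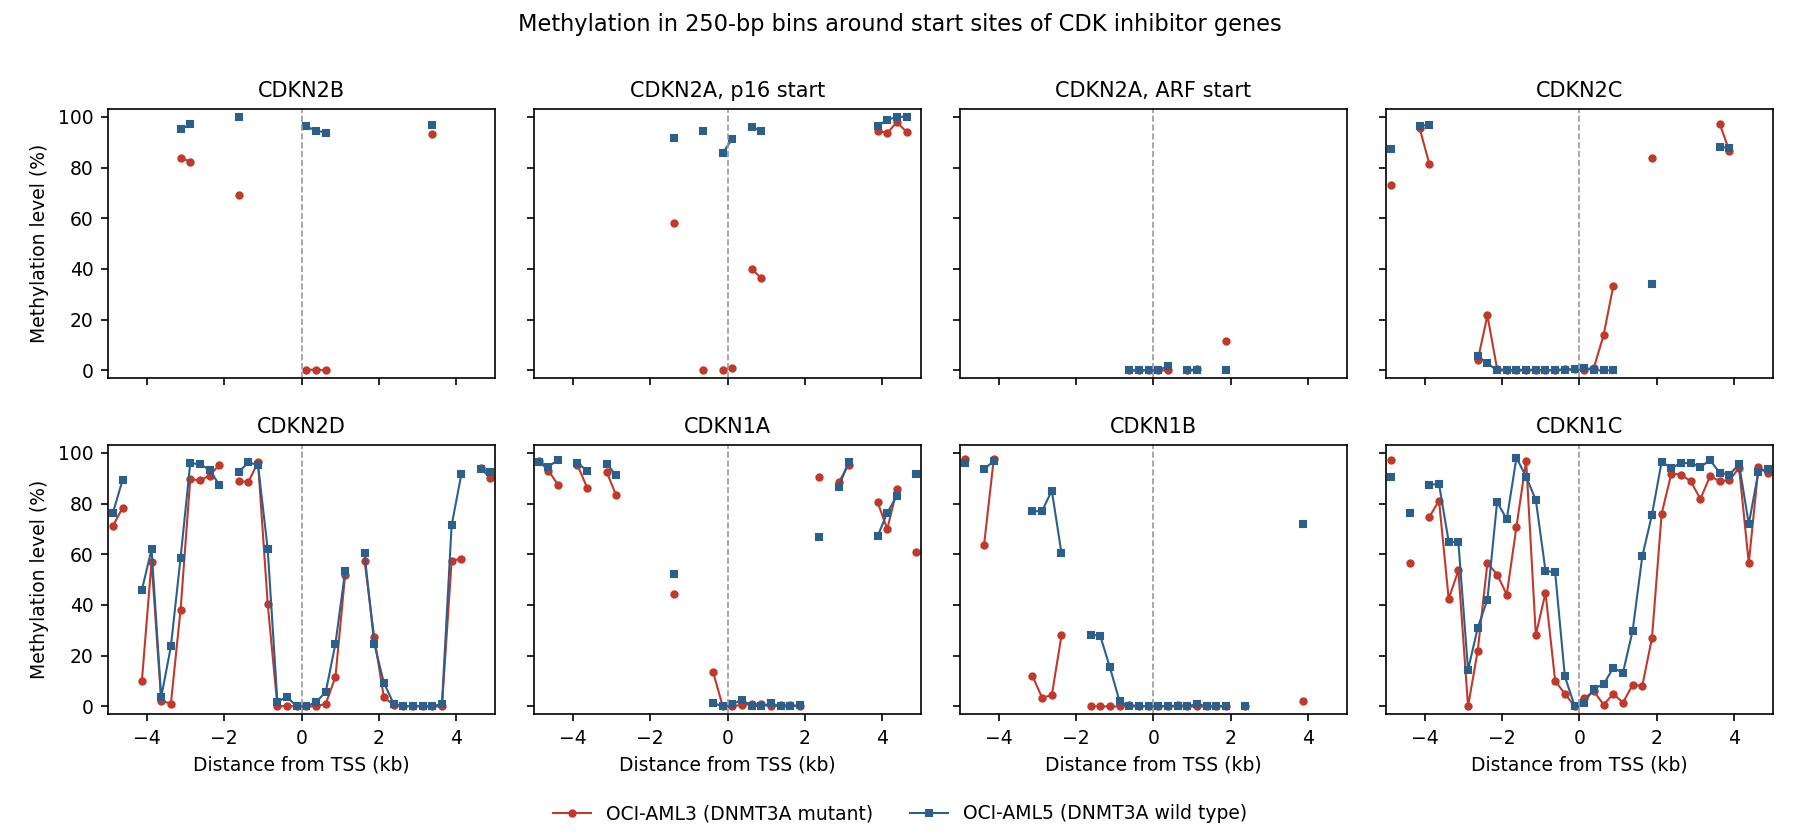
Methylation level (vertical axis, %) in 250-bp bins by distance from the TSS (horizontal axis, kb, positive in the direction of transcription) at 8 starts, for bins with at least 3 CpG dinucleotides with over 5 reads in each line, with lines joining adjacent bins. OCI-AML5 (squares) is near the top at CDKN2B and the p16 start, both lines are near 0 at the ARF, CDKN2C, CDKN2D, CDKN1A and CDKN1B starts, and the unmethylated stretch of CDKN1B and CDKN1C is narrower in OCI-AML5 than in OCI-AML3 (circles).

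Among the CIP/KIP genes, CDKN1C was the most different. CDKN1C (ENSG00000129757.15, chr11:2904443-2907005, minus strand), an imprinted gene that makes p57, had 13.7% in OCI-AML3 and 31.9% in OCI-AML5 over 401 CpG dinucleotides of its windows, a difference of -18.2 points. Of these, 136 were called lower and 6 were called higher in OCI-AML3. CpG dinucleotides between 20% and 80% numbered 57 in OCI-AML3 and 101 in OCI-AML5. The TSS itself was unmethylated in both lines, with 0.110% and 2.68% in the step from 2906943 to 2907442. Levels in OCI-AML5 then rose along the gene, to 5.95%, 13.9%, 23.5% and 73.4% in the next 4 steps of 500 bp. OCI-AML3 had 4.41%, 2.94%, 4.80% and 20.5% in the same steps, and both lines were methylated in the last step of the gene, at 92.2% and 95.5%.

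The same held on the other side of the CDKN1C start. Before the TSS, the 3 steps between 2907443 and 2908942 had 13.8%, 34.3% and 67.2% in OCI-AML3 and 43.5%, 74.3% and 92.8% in OCI-AML5. The unmethylated stretch was therefore narrower in OCI-AML5 at both ends. By annotation, 51 of 145 coding-exon CpG dinucleotides were called lower (35.2%), with levels of 8.05% and 24.8%. All 10 in introns were called lower, with 16.4% and 79.6%. The share called lower in the bodies of all protein-coding genes was 13.1%. Position 2905250, in a coding exon inside the stretch printed above, had 4 of 81 methylated reads in OCI-AML3 and 41 of 41 in OCI-AML5 (adjusted p = 2.77e-25, Fisher's exact test). Position 2905069, also coding, was higher in OCI-AML3, with 44 of 72 and 11 of 44 (adjusted p = 0.00204, Fisher's exact test), although its nearest neighbors, 18 and 10 bp away, were lower there. In relative depth, the windows of CDKN1C were at 1.72 in OCI-AML3 and 0.988 in OCI-AML5.

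CDKN1B (ENSG00000111276.12, chr12:12838432-12875303, plus strand), which makes p27, was unmethylated at its canonical start at position 12870302, with 0.0922% in OCI-AML3 and 1.66% in OCI-AML5 over 192 CpG dinucleotides. The lines parted upstream of it. In the window of a transcript with no defined coding sequence that starts at 12867992, OCI-AML3 had 13.8% and OCI-AML5 had 37.4% over 88 CpG dinucleotides, with 28 called lower in OCI-AML3. Inside this window, the steps of 500 bp from 12866932 and from 12867432 had 8.66% and 10.2% in OCI-AML3 and 75.9% and 82.1% in OCI-AML5, and 24 of their 25 CpG dinucleotides were called. In the stretch printed above, which was chosen for its calls, the 12 CpG dinucleotides lay between 0% and 13.9% in OCI-AML3. In OCI-AML5 they lay between 80.0% and 94.1%. All 12 were called lower, which follows in part from that choice. The share called lower was 10.8% over all windows of CDKN1B and 12.5% within 2000 bp of any protein-coding TSS. The edge downstream was of the same kind, since the step from 12873932 to 12874431 had 2.95% and 73.2% over 5 CpG dinucleotides.

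The 2 groups of start sites farther upstream differed less. Around 12838432 the levels were 69.3% and 84.8% over 16 CpG dinucleotides, and around 12849281 they were 34.9% and 38.7% over 90. Over all windows the difference was -7.62 points, and with protein-coding transcripts only it was -1.54, since that leaves only the canonical start, with none of the 3 groups upstream. Of the single CpG dinucleotides, 2 in introns stood apart from their neighbors. Position 12851786 had 45 of 46 methylated reads in OCI-AML3 and 0 of 38 in OCI-AML5 (adjusted p = 1.27e-20, Fisher's exact test), while the nearest CpG, 7 bp away, had 93.6% and 97.4%. Position 12865989 had 0 of 29 and 22 of 24 (adjusted p = 3.57e-11, Fisher's exact test), while the nearest on each side, 57 and 52 bp away, had 95.4% or more in OCI-AML3 and 93.0% or more in OCI-AML5. Whether each of these positions is still a CpG in both lines was not tested.

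CDKN1A (ENSG00000124762.14, chr6:36644237-36655114, plus strand), which makes the p53 target p21, was close to equal in the lines. Its windows had 13.5% and 14.7% over 235 CpG dinucleotides, with 9 called lower and 1 called higher in OCI-AML3. The canonical start at position 36646491 was unmethylated, with 3.14% and 3.61% over 206 CpG dinucleotides. The upstream start at 36644237 was methylated, with 73.9% and 79.2% over 42. The difference of the windows was -1.18 points as a mean over CpG dinucleotides, and -5.39 (95% interval -6.30 to -4.49) with every call counted once. The largest call lay at the 3′ end, at position 36653973 in an untranslated region, with 2 of 15 methylated reads in OCI-AML3 and 16 of 17 in OCI-AML5 (adjusted p = 7.10e-05, Fisher's exact test). It lies in the step from 36653737 to 36654236, where the levels were 14.3% and 74.4% over 5 CpG dinucleotides. In the other direction, position 36649462 in an intron had 49 of 51 and 25 of 45 (adjusted p = 2.52e-05, Fisher's exact test), while its neighbors 7 and 8 bp away were at 96.0% or more in both lines.

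The gene bodies, which overlap the TSS windows, gave nearly the same order. The differences were -80.8 points at CDKN2B, -24.7 at CDKN2A, -18.5 at CDKN1C, -7.59 at CDKN1B, -1.73 at both CDKN1A and CDKN2D, and 0.983 at CDKN2C. Of 19570 bodies of protein-coding genes with at least 10 CpG dinucleotides, 6.56% were lower and 0.613% were higher by at least 20 points. Of the 1800 CpG dinucleotides in the 7 bodies, 283 were called lower (15.7%) and 24 higher (1.33%), against 13.1% and 3.25% in all gene bodies. Farther than 2000 bp from every TSS, 4 of the 5 bodies that could be measured were mostly methylated. CDKN1A had 84.9% in OCI-AML3 and 88.9% in OCI-AML5, CDKN1B had 79.7% and 88.3%, and CDKN2C had 83.3% and 89.2%. CDKN2A had 72.4% and 90.4% there, over 53 of 183 CpG dinucleotides, and no measured body was then lower by 20 points. CDKN2D was the exception, with 2.10% and 5.20% over 8 CpG dinucleotides. CDKN2B had 3 CpG dinucleotides there, none with enough reads, and the body of CDKN1C lies wholly within 2000 bp of its TSSs.

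The rest of the pathway was a list of 21 genes for the kinases, cyclins, retinoblastoma and E2F proteins and the p53 and SKP2 branches. Of their promoters, 18 were lower and 3 higher in OCI-AML3, and 0 passed 20 points, where 88.3% of all promoters were lower, with a median of -3.55 points against -4.83 over all promoters. Over their 5825 promoter CpG dinucleotides, 6.75% were called lower and 3.11% higher, under the background of 12.5% and 4.12%. The largest difference toward a lower level in OCI-AML3 was that of CKS1B, a partner of the ligase subunit SKP2 that marks p27 for degradation, with 12.3% and 23.2%. The largest toward a higher level was that of CCND2, a D-type cyclin, with 21.3% and 15.3%. The kinases that INK4 proteins bind had 23.2% and 28.9% at CDK4 and 9.39% and 12.2% at CDK6. None of these 21 promoters reached the differences of CDKN2B, CDKN2A or CDKN1C over all windows. CKS1B, at -10.9 points, and E2F4, at -9.31, still differed more than CDKN1B, at -7.62. With at least 10 reads, CDKN2A itself was at -12.6 points.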

How the data were processed

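The deposited counts are methylated and unmethylated calls per CpG in 1 library per line, without normalization. The authors aligned paired-end reads to hg19 with Bismark and Bowtie 0.12.8 and added both strands. Removal of duplicates is not given in the sources used here. Listed positions were 1 bp after the C of each CpG in GRCh37, for every CpG of the 7 genes, and were moved back by 1. The GENCODE release 44 annotation lifted to GRCh37 gave the TSSs, and start sites over 1000 bp apart were treated as separate groups. Levels, Wilson intervals, Newcombe intervals of differences and Fisher's exact tests were computed with Python 3.11.15, numpy 2.4.6, scipy 1.17.1 and numba 0.67.0. Of these, only Fisher's exact test, with its adjustment, was tested on simulated data. Genes named beside the 7 were the largest difference each way in the pathway list, the neighbors MTAP and CDKN2B-AS1, and the 3 promoters closest to the most different member, of which 1 is not reported here. The members and lists were chosen with earlier results of these data known. Alternatives changed the minimum of reads, the windows, the transcripts, the thresholds and the weighting of calls.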

Additional observations from a re-analysis of the deposited data

How the results depend on the processing

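No paired analysis was possible because each line has 1 library, and no replicate could be left out. The count of 2 promoters lower by at least 20 points fell to 1 with at least 10 reads, with every call counted once, with 1000 bp on either side, with the most upstream TSS only and with protein-coding transcripts only, where CDKN2B remained past the threshold and CDKN2A did not. CDKN2A turned to 0.496 points at the most upstream TSS. The 2 bodies became 1 with at least 10 reads and with every call counted once, and 0 beyond 2000 bp from every TSS, where CDKN2B had no CpG left to measure. CpG dinucleotides called higher went from 25 to 16 at an adjusted p under 0.01. Promoters of all genes past the threshold numbered 4727 lower and 587 higher at 10 points, and 141 and 25 at 40 points. The low-depth stretch, whose alternatives were chosen after seeing the data, was 80 kb at a ratio under 0.25. The other counts kept their size to within 1.5 times under these alternatives. Of the single genes' differences, 22 promoter and 13 body values moved by more than the 95% interval of the calls allows. Among these, CDKN2B's promoter was at -55.5 points with at least 1 read and at -92.7 with at least 10 reads. CDKN2A's promoter was at -12.6 points with at least 10 reads. With every call counted once, CDKN2D's promoter was at -6.42 and CDKN1A's body at -6.84, and CDKN2C turned to -1.09 in the promoter and -4.66 in the body. At CDKN2A and CDKN2B, about 5 reads per CpG in OCI-AML5 leave 229 of 510 and 59 of 202 promoter CpG dinucleotides to measure, so small differences there were not detectable.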

Other observations

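Outside the windows and bodies, some flanks differed as well, and these were chosen after their values were seen. Beyond the 3′ end of CDKN2A, the 500-bp steps from 21964751 and from 21965251 had 17.1% and 0.787% in OCI-AML3 and 89.4% and 91.5% in OCI-AML5, over 25 and 22 CpG dinucleotides. This flank lies in the stretch with low depth in OCI-AML5. Downstream of CDKN2C, an unmethylated stretch had a wider extent in OCI-AML5, where the other members with a difference had it in OCI-AML3. The step 51441917 to 51442416 stood at 74.2% in OCI-AML3 against 28.1% in OCI-AML5, and the step from 51444417 to 51444916 had 82.2% and 1.07%, while the step between them from 51443417 was at 0.0930% and 0.110%.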
